A study of Mus musculus with 6 samples.

Results

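The genes described here are the RhoGAPs and RhoGEFs on the array whose symbol begins with Arhgap, Arhgef, Dock or Vav. Members were taken by symbol from the probe sets that the platform annotation gives 1 gene, and the brightest probe set on average, judged on all 6 arrays, stood for its gene. The rule found 68 of the 18193 genes tested, carried by 166 of 34945 probe sets with 1 gene symbol. They were 32 Arhgap genes, 22 Arhgef genes, 10 Dock genes, 3 Vav genes and Arhgap20os, which is annotated as a long non-coding RNA and is no RhoGAP.

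RNA was measured on Affymetrix mouse arrays from cultured mouse embryonic fibroblasts, mesenchymal cells grown out of dissociated embryos, here C57BL/6 embryos of 14 days of gestation, males and females pooled. There were 3 arrays of cells labelled as lacking c-Abl and Arg, the kinases encoded by Abl1 and Abl2, called DKO here, and 3 arrays of wild-type cells, called WT. Both were grown in the same serum medium, and no other treatment is labelled. The stated aim was to learn what Abl kinases do to transcription. How the alleles were made and whether the cells were immortalised is not stated in the labels. Nor do they say that replicate arrays are of separate cultures, so a p-value here covers the spread among 3 arrays a group, which may be technical.

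RhoGAPs and RhoGEFs act on small GTPases such as RhoA, Rac and Cdc42, molecular switches that are active when bound to GTP. RhoGEFs load them with GTP and RhoGAPs make them hydrolyse it. In fibroblasts these switches govern stress fibres, contraction and protrusion. Most RhoGEFs (the Arhgef and Vav genes) carry a Dbl-type catalytic domain, whereas the Dock proteins use an unrelated domain and act on Rac or Cdc42. Abl kinases meet this network at several proteins, among them the RhoGAP encoded by Arhgap35, which Arg phosphorylates.

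Among the 68 members, 21 were higher in the DKO arrays, 24 were lower and 23 were not called, at an adjusted p under 0.05 from limma with Benjamini-Hochberg adjustment over all genes. That is 66.2% called, beside 59.7% of all genes tested (24.2% rose and 35.5% fell), so the share of changed members was near that of any gene. Changes of 2-fold or more were found for 5 members that rose and 6 that fell, together 16.2% of the members against 15.8% of all genes (7% rose and 8.77% fell). The 3 DKO arrays did not overlap the 3 WT arrays for 45 members (66.2%), beside 64.7% of all genes. The median difference, DKO minus WT on the scale of log2(signal + 16), was 0.0068 over the members and -0.03 over all genes. The results below are therefore about which regulators moved and by how much, not about the family as a whole. Adding 16 to each signal shrinks the differences of dim genes, and 31 of the 68 members had a mean signal below 50 in both groups. Of the 37 brighter ones, which include any gene that passed 50 in a single group, 17 rose and 14 fell, 83.8% called beside 85.7% of the 9438 genes as bright (3551 rose and 4539 fell).

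**Figure D1:**
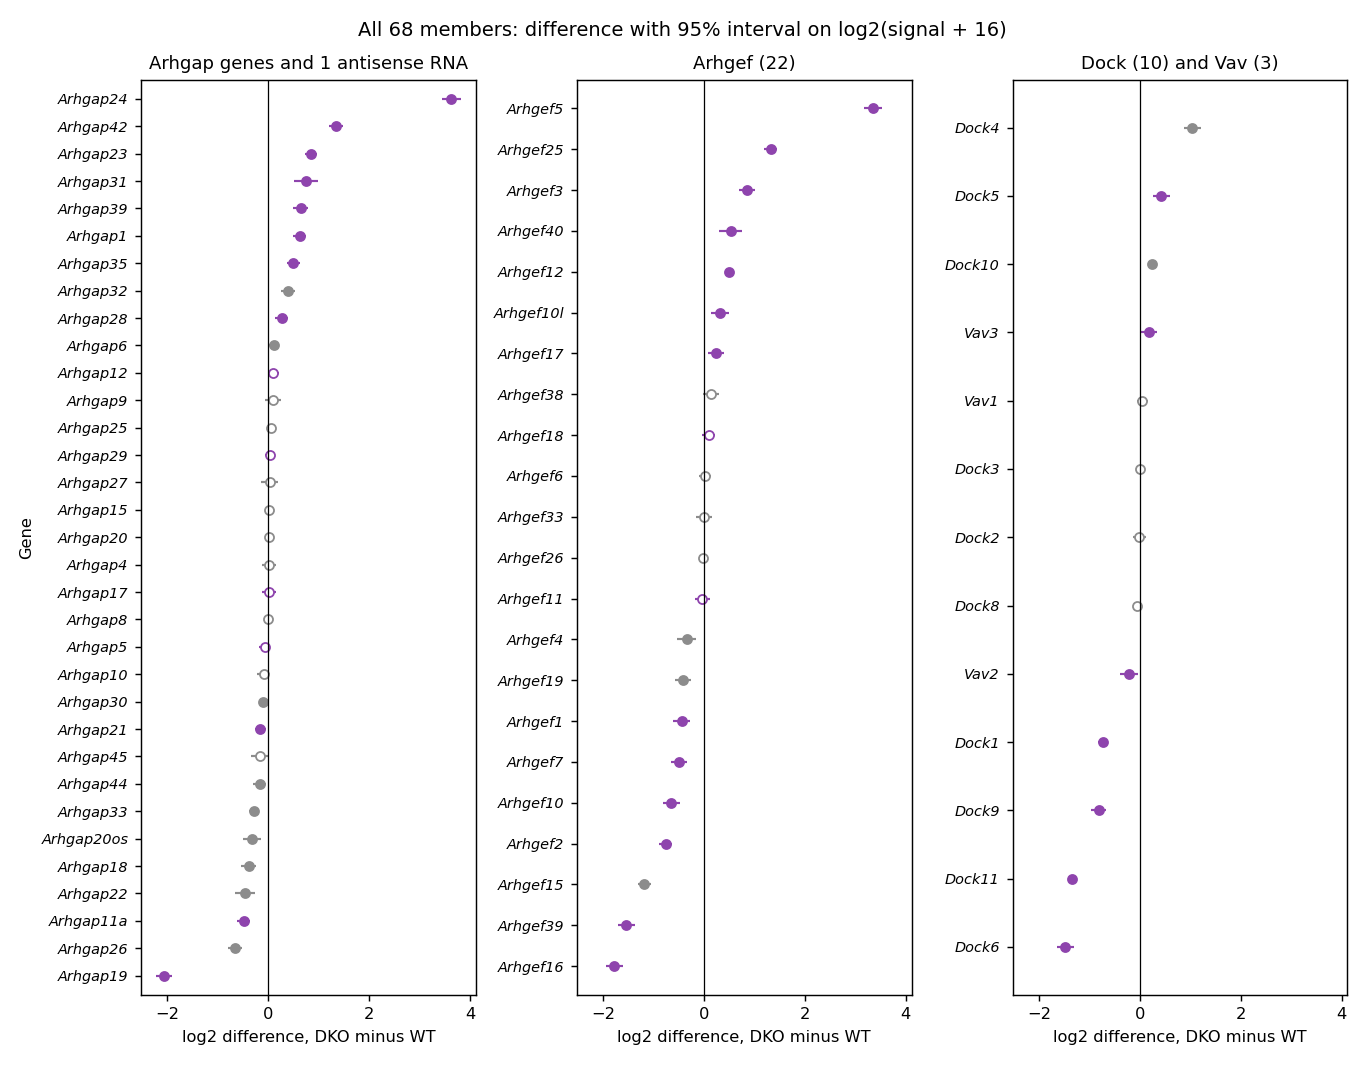
Log2 difference (DKO minus WT, on log2(signal + 16)) of each of the 68 members with its 95% interval from limma, in 3 panels by gene family, with filled points where the adjusted p was under 0.05 and purple points where the mean signal reached 50 in at least 1 group (grey otherwise). Arhgap24 (3.63) and Arhgef5 (3.36) stand apart at the top, and Arhgap19 (-2.07), Arhgef16 (-1.78) and Dock6 (-1.48) are the lowest of their panels.

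The targeted kinases were not clearly lower in the arrays labelled knockout. The brightest Abl1 probe set had a mean of 169.8 in DKO and 184.8 in WT (difference -0.11, adjusted p = 0.107 over all probe sets). It was not called, although every DKO array (161 to 178) was below every WT array (182 to 190). The brightest Abl2 probe set had 254.1 in DKO and 256.1 in WT, with overlap (difference -0.011, adjusted p = 0.888). In addition, 2 dim Abl1 probe sets were higher in DKO, by 0.28 and 0.21. Where these probes lie relative to the deleted parts was not analysed here, and a probe outside them checks nothing, so every direction is that of the arrays as labelled. Median signals were 14.4 to 14.7 in the DKO arrays and 13.4 to 13.7 in the WT arrays. The log2 ratio of 3′ to 5′ actin probe sets, a sign of RNA quality, averaged 0.364 in DKO and 0.469 in WT. Neither measure overlapped between the groups (two-sided exact permutation p = 0.1 each). The same ratio for Gapdh averaged -0.170 in DKO and -0.152 in WT, with overlap between the groups (p = 0.6 by the same permutation test). The lowest correlation across genes within a group was 0.998 against a highest of 0.905 between groups. Spiked controls moved in opposite ways: the poly-A spikes were lower in DKO (mean log2 difference -0.52) and the hybridization spikes higher (0.26) (p = 0.1 each by the same permutation test, the smallest 3 against 3 arrays can give). The part of these measures in the results was not tested. With arrays scaled on the poly-A spikes the median of all genes was 0.12 and 44 members rose and 11 fell, and on the hybridization spikes it was -0.12 and 16 rose and 35 fell. Centring every array on its own median gave 25 up and 20 down. Of fibroblast markers, 9 of 15 rose and 2 fell, and Col1a2 and Col3a1 (9.71 and 14.9 in DKO against 2284 and 1934 in WT) and Pdgfra (1789 in DKO against 9.99 in WT) were each under 20 in 1 group, whereas Vim and Fn1 were bright in both (7306 and 4369 in DKO against 5288 and 1384 in WT).

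Among RhoGAPs, 10 of 32 rose, 9 fell and 13 were not called, which is 59.4% called, beside 59.7% of all genes. Arhgap24, which encodes a filamin-binding GAP for Rac, had the highest difference of all 68 members. Its signals were 234, 234 and 195 in the DKO arrays, against 3.41, 3.21 and 2.77 in the WT arrays. All DKO arrays were bright and all WT arrays lay well below the array median, and the difference was 3.63 ± 0.085 (SE, n = 3 each; adjusted p = 2.63e-12). Its other probe set, dim on every array, had a difference of 0.08 (6.42 in DKO against 5.20 in WT; adjusted p = 0.0322), so the size of the change rests on a single probe set, of the a type, which can read several transcripts of a gene. Arhgap42, a GAP for RhoA known from vascular smooth muscle, had signals of 183, 195 and 192 in the DKO arrays, against 68.5, 62.9 and 64.4 in the WT arrays. The groups were well apart, with a difference of 1.34 ± 0.061 (SE, n = 3 each; adjusted p = 9.20e-10). Its second probe set was dim in both groups (4.19 in DKO against 3.65 in WT).

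Smaller rises were found for broadly expressed RhoGAPs. Arhgap23, a GAP with a PDZ domain, had signals of 263, 249 and 277 in the DKO arrays, against 144, 137 and 139.7 in the WT arrays, a difference of 0.84 (adjusted p = 2.58e-08). Arhgap31, a GAP for Rac and Cdc42 that is mutated in human Adams-Oliver syndrome, had 67.4, 90.0 and 83.7 in the DKO arrays, against 34.0, 43.6 and 45.9 in the WT arrays (difference 0.75, adjusted p = 5.18e-05). One of its dim probe sets fell (10.6 in DKO against 18.0 in WT, difference -0.35, adjusted p = 0.000158). Arhgap1, a GAP best known for Cdc42, had tightly grouped signals of 141, 141 and 139.9 in the DKO arrays, against 84.5, 84.6 and 89.2 in the WT arrays (difference 0.62, adjusted p = 1.12e-06). Arhgap39 rose by 0.64 (223 in DKO against 137 in WT; adjusted p = 2.58e-06) on a probe set of the cross-hybridizing x type, and neither of its 2 other probe sets was called; without x, s and a probe sets its difference was -0.16.

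A pair of closely related GAPs had different calls. Arhgap35, the Arg substrate, had signals of 182, 171 and 186 in the DKO arrays, against 119.9, 116 and 132 in the WT arrays, a rise of 0.50 ± 0.062 (SE, n = 3 each; adjusted p = 1.36e-05) seen in every DKO array against every WT array. Its close relative Arhgap5 had signals of 621, 667 and 648 in the DKO arrays, against 692, 634 and 716 in the WT arrays. These overlapped, and the difference was -0.075 (95% interval -0.18 to 0.034). However, a second bright probe set of Arhgap5 was lower (364 in DKO against 448 in WT, difference -0.29, adjusted p = 0.0101). A dim Arhgap5 probe set was lower too (11.7 in DKO against 22.5 in WT, difference -0.48, adjusted p = 0.000936). The difference between the pair was not tested. Arhgap29, a bright GAP that acts in endothelial cells, had 678, 667 and 688 in the DKO arrays, against 698, 633 and 655 in the WT arrays, with overlap between the groups and a difference of 0.035 (95% interval -0.061 to 0.13). Arhgap12 also overlapped between the groups on its brightest probe set (304 in DKO against 283 in WT, difference 0.10, 95% interval -0.014 to 0.21). A second bright Arhgap12 probe set was higher (132 in DKO against 108 in WT, difference 0.26, adjusted p = 0.00233). Arhgap17, a junction protein that acts on Cdc42 and Rac, overlapped on its brightest probe set (116 in DKO against 116 in WT, difference 0.0064, 95% interval -0.13 to 0.14). Both other Arhgap17 probe sets, dim in both groups, rose by 0.44 and 0.25 (adjusted p = 0.00583 and 0.0160). Arhgap28 rose by 0.27 on its brightest probe set (163 in DKO against 133 in WT, adjusted p = 0.00185). Its other probe sets, dim in both groups, had differences of -0.077 and -0.16 and were not called. The call for Arhgap28 was lost with probe sets averaged and under hybridization spike scaling.

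The largest fall on this scale was that of Arhgap19, a GAP for RhoA that acts in dividing lymphocytes in human. Its signals were 29.5, 32.0 and 31.9 in the DKO arrays, against 173, 181 and 191 in the WT arrays. No DKO array came near any WT array, and the difference was -2.07 ± 0.07 (SE, n = 3 each; adjusted p = 5.81e-11). With an offset of 1 in place of 16, its difference was -2.51, smaller in size than those of Arhgef16 (-2.88) and Arhgef39 (-2.61). The bright probe set is of the s type, and a dim second one fell by less (4.63 in DKO against 8.16 in WT, difference -0.23). Arhgap11a, a GAP for RhoA found in cycling cells, was lower with signals of 222, 195 and 189 in the DKO arrays, against 283, 296 and 287 in the WT arrays (difference -0.49 ± 0.059, SE, n = 3 each; adjusted p = 1.09e-05). Its call was lost under poly-A spike scaling, where the difference was -0.0019. Genes of cell division fell beside them: all 23 measured proliferation genes were lower in DKO, also under poly-A, hybridization and median scaling, with summed signals of 9501 to 10814 in the DKO arrays and 28040 to 28608 in the WT arrays and a list median of -1.62. The part of cell division in the results on these members was not tested.

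Promoter sequences are shown for Arhgap19 and Arhgap11a, which fell alongside the proliferation genes, and for Arhgef39, Arhgef5 and Arhgap42, which are among the largest changes and are described above or below; Arhgap11a was added after its value was seen. Each is the 250 bases before the RefSeq gene start in GRCm38.p6, 5′ to 3′, with capitals marking the motifs found on either strand. Arhgap19 lies at chr19:41802085-41802334 on the minus strand, Arhgap11a at chr2:113848662-113848911 on the minus strand, Arhgef39 at chr4:43508748-43508997 on the minus strand, Arhgef5 at chr6:43265394-43265643 on the plus strand and Arhgap42 at chr9:9239028-9239277 on the minus strand.
Arhgap19: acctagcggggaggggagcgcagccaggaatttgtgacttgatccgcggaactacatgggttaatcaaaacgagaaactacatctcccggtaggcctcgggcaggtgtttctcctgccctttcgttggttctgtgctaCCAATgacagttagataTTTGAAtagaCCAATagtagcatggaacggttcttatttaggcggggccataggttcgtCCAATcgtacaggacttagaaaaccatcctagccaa
Arhgap11a: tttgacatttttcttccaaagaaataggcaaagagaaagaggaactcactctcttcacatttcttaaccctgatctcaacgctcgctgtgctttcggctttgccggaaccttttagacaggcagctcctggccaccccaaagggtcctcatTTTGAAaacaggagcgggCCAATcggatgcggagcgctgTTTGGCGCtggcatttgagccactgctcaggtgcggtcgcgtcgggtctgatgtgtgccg
Arhgef39: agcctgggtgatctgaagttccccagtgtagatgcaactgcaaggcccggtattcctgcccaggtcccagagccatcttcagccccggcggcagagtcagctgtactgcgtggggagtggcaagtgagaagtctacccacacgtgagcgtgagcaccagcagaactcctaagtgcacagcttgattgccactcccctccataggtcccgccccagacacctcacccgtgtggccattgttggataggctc
Arhgef5: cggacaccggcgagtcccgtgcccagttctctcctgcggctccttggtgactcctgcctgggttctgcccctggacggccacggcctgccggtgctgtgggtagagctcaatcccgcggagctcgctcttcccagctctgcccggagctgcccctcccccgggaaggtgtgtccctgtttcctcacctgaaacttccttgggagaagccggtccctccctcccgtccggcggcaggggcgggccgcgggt
Arhgap42: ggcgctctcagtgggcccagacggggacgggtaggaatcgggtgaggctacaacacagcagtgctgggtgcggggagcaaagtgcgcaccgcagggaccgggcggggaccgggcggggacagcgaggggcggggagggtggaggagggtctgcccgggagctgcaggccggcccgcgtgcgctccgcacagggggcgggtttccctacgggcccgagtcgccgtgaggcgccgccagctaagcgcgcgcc

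The motifs searched, on both strands, were CCAAT (the NF-Y box), TTTGAA (the core of the cell cycle homology region of mitotic promoters), TTTNNCGC (the E2F site), GGAATG (the TEAD site) and the CArG box of SRF; in the windows shown no match overlapped another. Arhgap19 held CCAAT 3 times, starting 112, 85 and 36 bases before the gene start, and TTTGAA once at 95 bases. Arhgap11a held CCAAT at 81 bases, TTTGAA at 99 bases and TTTNNCGC at 60 bases, whereas the windows of Arhgef39, Arhgef5 and Arhgap42 held none of the 5 motifs. Of other members with large changes, the windows of Dock11 and Arhgef16 held none either, and that of Dock6 held GGAATG at 94 bases. For Arhgap24 and Arhgef25 there was no RefSeq window, and Dock4 and Arhgef15 were not looked at singly. CCAAT and TTTGAA together occurred in 5.55% of all 32851 RefSeq windows of this length and in 3 of the 84 windows of the 53 members that have one, those of Arhgap11a, Arhgap19 and Arhgef3, the last of which rose. Over all windows the shares were 33.8% for CCAAT, 16% for TTTGAA, 4.28% for TTTNNCGC, 12.6% for GGAATG and 1.47% for the CArG box, and over the members' windows 22.6%, 5.95%, 9.52%, 7.14% and 0%. These are matches of letters in a short window and describe no binding.

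The other RhoGAPs that fell did so by less than Arhgap19, and most were dim. Arhgap26, which binds focal adhesion kinase, had 11.1, 13.5 and 11.5 in the DKO arrays, against 26.3, 28.7 and 30.2 in the WT arrays, a clean separation at low signal (difference -0.66, adjusted p = 8.57e-07). Arhgap22, a GAP for Rac, and Arhgap18, a GAP for RhoA, were lower, with differences of -0.47 and -0.39 (26.6 in DKO against 42.8 in WT, and 27.9 in DKO against 41.4 in WT). Arhgap21, a bright GAP recruited to the Golgi, was lower in all DKO arrays by a small margin, 205, 220.2 and 207 in the DKO arrays, against 234, 248 and 231 in the WT arrays (difference -0.16, adjusted p = 0.0156), and a second bright probe set fell by 0.24. The call for Arhgap21 was lost without DKO replicate 1, without WT replicate 2 and after median centring, and under poly-A spike scaling the gene was higher by 0.32 (adjusted p = 0.0029). Arhgap33, Arhgap44 and Arhgap30 were lower, with differences of -0.29, -0.18 and -0.12, at signals under 20 in every array. The antisense RNA Arhgap20os fell by 0.32 at similar signals.

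Among the Dbl-type RhoGEFs, 7 of 22 Arhgef genes rose, 9 fell and 6 were not called. That is 72.7% called, beside 59.7% of all genes and 85.7% of genes with a mean of at least 50 in a group, as 15 of the 22 had. Arhgef5, a GEF for RhoA known from podosomes of Src-transformed cells, showed the second largest rise. Its only probe set had signals of 289.9, 244 and 271 in the DKO arrays, against 13.5, 10.6 and 11.1 in the WT arrays. Every DKO array lay far above the WT arrays, and the difference was 3.36 ± 0.082 (SE, n = 3 each; adjusted p = 3.53e-12). Arhgef25, a GEF for RhoA that is switched on by Gq-coupled receptors, had signals of 1125, 1037 and 1214 in the DKO arrays, against 426, 427 and 472 in the WT arrays on its brightest probe set. This was a rise of 1.32 ± 0.059 (SE, n = 3 each; adjusted p = 8.46e-10). It rests on a probe set of the s type, which can read several transcripts: of 3 others, 2 rose (185 in DKO against 83.5 in WT, difference 1.01, and 56.8 in DKO against 37.9 in WT, difference 0.43) and the third was not called (168 in DKO against 147 in WT, difference 0.18, adjusted p = 0.0788). Without x, s and a probe sets the gene was read from the last of these and its call was lost.

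**Figure D2:**
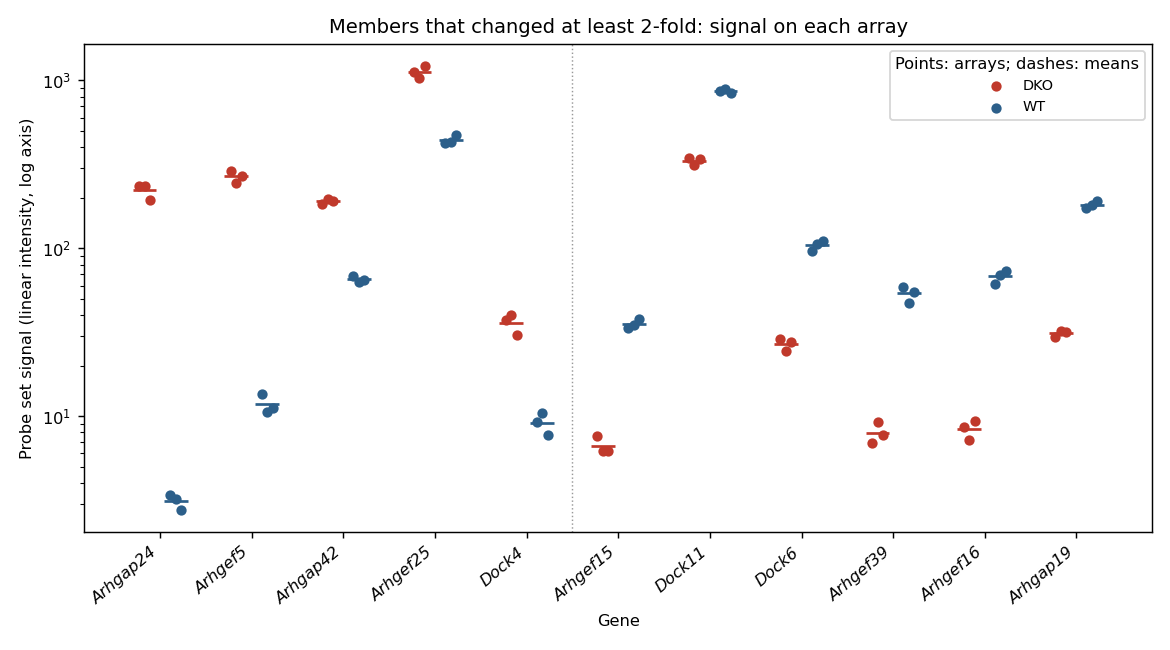
Signal (linear intensity, log axis) on each of the 6 arrays for the 11 members that changed at least 2-fold, each point an array and each dash a mean of 3, DKO in red to the left of WT in blue and the dotted line parting 5 genes that rose from 6 that fell. No gene shows overlap between DKO and WT; Dock4 and Arhgef15 stay below 50 on every array, and the WT values of Arhgap24 lie between 2.77 and 3.41.

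Arhgef3, a GEF for RhoA and RhoB, had signals of 114, 128 and 112 in the DKO arrays, against 56.8, 61.6 and 56.9 in the WT arrays. The groups did not overlap and the difference was 0.85 (adjusted p = 4.20e-07). Arhgef3 lies on chromosome 14, whose bright genes had a median of 0.54 relative to all bright genes. Centring did not move Arhgef3 because its mean log2 signal was not above 7, and the part of this shift in its rise was not tested. Of the other members on this chromosome, Arhgef40 and Dock5 rose, while Dock9 and Arhgap22 fell. Arhgef40 rose by 0.53 (147 in DKO against 98.1 in WT; adjusted p = 0.000661), with 2 more of its probe sets up by 0.74 and 0.76. It lies on chromosome 14 too, and with chromosomes centred its difference was -0.017 and not called. Arhgef17 rose by 0.23 on its brightest probe set (132 in DKO against 109.8 in WT; adjusted p = 0.0157), a call lost without DKO replicate 3, WT replicate 1 or WT replicate 2. Another of its probe sets rose by 1.26 (142 in DKO against 49.8 in WT), so its probe sets gave very different sizes. Arhgef10l rose by 0.31 (104 in DKO against 79.8 in WT; adjusted p = 0.00584).

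The 3 RhoGEFs that couple G12 and G13 receptors to RhoA had different calls. Arhgef12 had bright and tightly grouped signals of 844, 828 and 816 in the DKO arrays, against 577, 592 and 594 in the WT arrays, a rise of 0.49 ± 0.037 (SE, n = 3 each; adjusted p = 1.42e-07). Its second bright probe set rose by 0.32, and a dim one fell by 0.25. Arhgef1 had 54.9, 47.0 and 57.8 in the DKO arrays, against 75.9, 79.5 and 79.3 in the WT arrays, lower in every DKO array (difference -0.45 ± 0.08, SE, n = 3 each; adjusted p = 0.000319); its dim second probe set rose by 0.23 (22.7 in DKO against 16.9 in WT, adjusted p = 0.0132), and without x, s and a probe sets that reading stood for the gene. Arhgef11 had 83.6, 74.5 and 77.9 in the DKO arrays, against 85.7, 79.9 and 76.9 in the WT arrays, with overlap between the groups and a difference of -0.033 (95% interval -0.19 to 0.12).

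Arhgef16, a GEF for RhoG that binds Eph receptors, had the largest fall among RhoGEFs. Its signals were 8.65, 7.21 and 9.41 in the DKO arrays, against 61.7, 69.3 and 73.5 in the WT arrays. The DKO arrays were below the array median and the difference was -1.78 ± 0.077 (SE, n = 3 each; adjusted p = 5.48e-10). Arhgef39, a Dbl-type GEF linked to proliferation of human tumour cells, had 6.94, 9.19 and 7.74 in the DKO arrays, against 58.8, 47.5 and 55.0 in the WT arrays (difference -1.54 ± 0.076, SE, n = 3 each; adjusted p = 2.14e-09). It too was below the array median in DKO and only modestly bright in WT. Both genes have a single probe set and lie on chromosome 4, where 365 genes with a mean log2 signal above 7 were shifted by a median of -0.65 against all such genes. The part of this shift in the 2 falls was not tested. Of the other members on this chromosome, Arhgef19 fell and Arhgef10l rose. Arhgef15, a GEF of the same ephexin group as Arhgef16 that is known from blood vessels, was below the array median in DKO with 7.58, 6.21 and 6.21 in the DKO arrays, against 33.6, 34.9 and 38.0 in the WT arrays (difference -1.18, adjusted p = 1.80e-09), and a second dim probe set fell by 0.79. The 5 endothelial markers measured summed to 32.6 to 38.7 in the DKO arrays and 35.2 to 42.5 in the WT arrays, and none was called.

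Arhgef2, the microtubule-bound GEF for RhoA, had signals of 275, 241 and 244 in the DKO arrays, against 477, 425 and 422 in the WT arrays. Every DKO array was lower, with a difference of -0.76 ± 0.062 (SE, n = 3 each; adjusted p = 2.40e-07), and both other probe sets fell (differences -1.23 and -0.58). Arhgef10 had 2 probe sets lower in DKO, with differences of -0.65 and -0.89 (42.4 in DKO against 75.6 in WT on the brighter one; adjusted p = 9.77e-06). Arhgef7, the PAK-binding GEF of focal adhesions, had 86.4, 102 and 104 in the DKO arrays, against 142, 138 and 150.0 in the WT arrays (difference -0.49, adjusted p = 6.79e-05). Its relative Arhgef6 was dim in both groups (17.9 in DKO against 17.4 in WT). Arhgef10 and Arhgef7 lie on chromosome 8, where the median of the bright genes was -0.42 relative to all bright genes. With chromosomes centred Arhgef7 was at -0.076 and its call was lost, as it was without x, s and a probe sets (-0.0073). Centring did not move Arhgef10 because its mean log2 signal was not above 7, so for this gene it was no test. Arhgef19 and Arhgef4, a GEF activated by the tumour suppressor APC, were lower, with differences of -0.42 and -0.34, at dim signals. Arhgef18, a GEF for RhoA at cell junctions, overlapped between the groups on its brightest probe set. Its signals were 186, 179 and 203 in the DKO arrays, against 176, 173 and 183 in the WT arrays. The difference was 0.087 (95% interval -0.038 to 0.21). A dim Arhgef18 probe set rose by 0.27 (11.1 in DKO against 6.41 in WT, adjusted p = 6.57e-05).

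Of the 10 Dock genes, 3 rose, 4 fell and 3 were not called, which is 70% called, beside 59.7% of all genes. All 4 that fell passed a mean of 50 in WT. Dock11, a GEF for Cdc42, had signals of 344, 314 and 338 in the DKO arrays, against 863, 883 and 841 in the WT arrays. Its DKO arrays were all below every WT array, with a difference of -1.34 ± 0.045 (SE, n = 3 each; adjusted p = 5.75e-11); a dim second probe set was not called. Dock9, the related Cdc42 GEF, had 242, 239 and 225 in the DKO arrays, against 383, 431 and 471 in the WT arrays (difference -0.82 ± 0.066, SE, n = 3 each; adjusted p = 2.24e-07), and 2 more of its probe sets fell (differences -0.71 and -0.61). Dock10, the remaining relative of this group, was dim in both groups (6.44, 5.91 and 5.88 in DKO, 2.48, 3.01 and 2.68 in WT), with a called difference of 0.24.

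Dock6, a GEF for Rac and Cdc42 that is mutated in human Adams-Oliver syndrome as ARHGAP31 is, had 28.9, 24.5 and 27.8 in the DKO arrays, against 96.5, 105 and 109.9 in the WT arrays. The groups were far apart, the difference was -1.48 ± 0.079 (SE, n = 3 each; adjusted p = 4.41e-09), and its second probe set fell by 0.31. Dock1, the Rac GEF that works with ELMO, Crk and the adaptor Cas downstream of integrins, had 190.0, 204 and 201 in the DKO arrays, against 333, 345 and 342 in the WT arrays. Every DKO array was lower (difference -0.73 ± 0.047, SE, n = 3 each; adjusted p = 2.56e-08), and a dim second probe set fell by 0.26. Dock5, its close relative, had 154, 124 and 152 in the DKO arrays, against 109, 97.8 and 101 in the WT arrays on the brightest probe set, a rise of 0.43 (adjusted p = 0.000495). Another Dock5 probe set fell by 0.40 (35.8 in DKO against 52.5 in WT; adjusted p = 0.00118), so its direction depends on the probe set. Dock5 also lies on chromosome 14, and with chromosomes centred its difference was -0.12 and not called. Dock4, a Rac GEF of the ELMO-binding kind, was dim in both groups with 37.2, 39.9 and 30.3 in the DKO arrays, against 9.18, 10.4 and 7.78 in the WT arrays (difference 1.04, adjusted p = 9.48e-08), and 2 dimmer probe sets rose too.

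Of the 3 Vav genes, GEFs that tyrosine kinases switch on by phosphorylation, Vav2 and Vav3 were measured above 50 in at least 1 group. Vav2 had 46.5, 43.6 and 44.5 in the DKO arrays, against 61.0, 54.1 and 49.1 in the WT arrays, a difference of -0.21 ± 0.082 (SE, n = 3 each; adjusted p = 0.0398). Vav3 had 94.8, 105 and 96.3 in the DKO arrays, against 78.8, 84.1 and 92.4 in the WT arrays, a small rise of 0.18 ± 0.073 (SE, n = 3 each; adjusted p = 0.0482). Neither gene overlapped between the groups on its brightest probe set, yet both calls were lost on leaving out most single arrays. These were DKO replicates 2 and 3 and WT replicates 1 and 2 for Vav2, and every array but WT replicate 3 for Vav3. The rise of Vav3 is on a probe set of the s type. A second bright Vav3 probe set was not called (56.5 in DKO against 54.0 in WT, difference 0.049, adjusted p = 0.581), nor was any other probe set of Vav2 or Vav3. Vav1, the blood cell member, was dim on all arrays with 10.9, 8.03 and 6.89 in the DKO arrays, against 7.73, 8.47 and 7.02 in the WT arrays (difference 0.048, 95% interval -0.066 to 0.16).

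Several regulators known from blood cells, named after their values were seen, were dim in both groups. Dock2 (13.4 in DKO against 13.8 in WT), Dock8 (7.35 in DKO against 8.14 in WT), Arhgap15 (3.54 in DKO against 3.26 in WT), Arhgap25 (6.87 in DKO against 6.05 in WT) and Arhgap45 (18.4 in DKO against 22.6 in WT) were not called on the probe set used. Other Dock8 probe sets, dim as well, fell by 0.17 and 0.070 (adjusted p = 0.00724 and 0.0408). Of 12 leukocyte markers 3 rose and 3 fell. Those that rose were Cd14 (401 in DKO, 99.9 in WT), Cd53 (44.3 in DKO, 6.11 in WT) and Cd68 (41.0 in DKO, 19.3 in WT). Those that fell were Coro1a (8.10 in DKO, 35.7 in WT), Laptm5 (13.7 in DKO, 17.1 in WT) and Cd52 (5.71 in DKO, 7.25 in WT). Ptprc (2.64 in DKO, 2.59 in WT) and Tyrobp (4.0 in DKO, 4.4 in WT) were far below the array medians. The summed signal of the 12, with Cd14 included, was 565 to 595 in the DKO arrays against 256 to 266 in the WT arrays. The neuronal gene Dock3 was dim as well (4.60 in DKO against 4.45 in WT). Of 5 neural markers 2 fell, Tubb3 (8.14 in DKO against 52.9 in WT) and Map2 (30.3 in DKO against 101 in WT), and their summed signal was 89.7 to 94.6 in the DKO arrays and 196 to 212 in the WT arrays; their part in the results was not tested. Arhgap4, Arhgap8, Arhgap9, Arhgap10, Arhgap20, Arhgap27, Arhgef26, Arhgef33 and Arhgef38 were not called either, with group means between 3.38 and 30.7. Another Arhgap9 probe set, dim as well, fell by 0.33 (15.8 in DKO against 24.1 in WT, adjusted p = 0.00846). The last 2 called members were dim as well: Arhgap32, a GAP of neurons and adhesion sites, rose by 0.39 (15.8 in DKO against 8.24 in WT) and Arhgap6, a GAP for RhoA, by 0.11 (6.60 in DKO against 4.90 in WT), the second losing its call without DKO replicate 1 or 3 and without WT replicate 1 or 2. In bulk RNA, fewer cells of a type and less RNA per cell cannot be told apart.

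The calls were set against every other probe set. Of 68 members, 51 had more than 1 probe set and 33 of these were called. Another probe set was called the same way for 16 of the 33 and the opposite way for 4 of them, namely Arhgap31, Arhgef1, Arhgef12 and Dock5; the opposing probe set was brighter than 50 for Dock5 alone. Among the members not called, other probe sets were called for Arhgap5, Arhgap9, Arhgap12, Arhgap17, Arhgef18 and Dock8. For 3 of the 68 members, Arhgef5, Arhgef16 and Arhgef39, a change of at least 2-fold stands on the gene's only probe set.

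**Figure D3:**
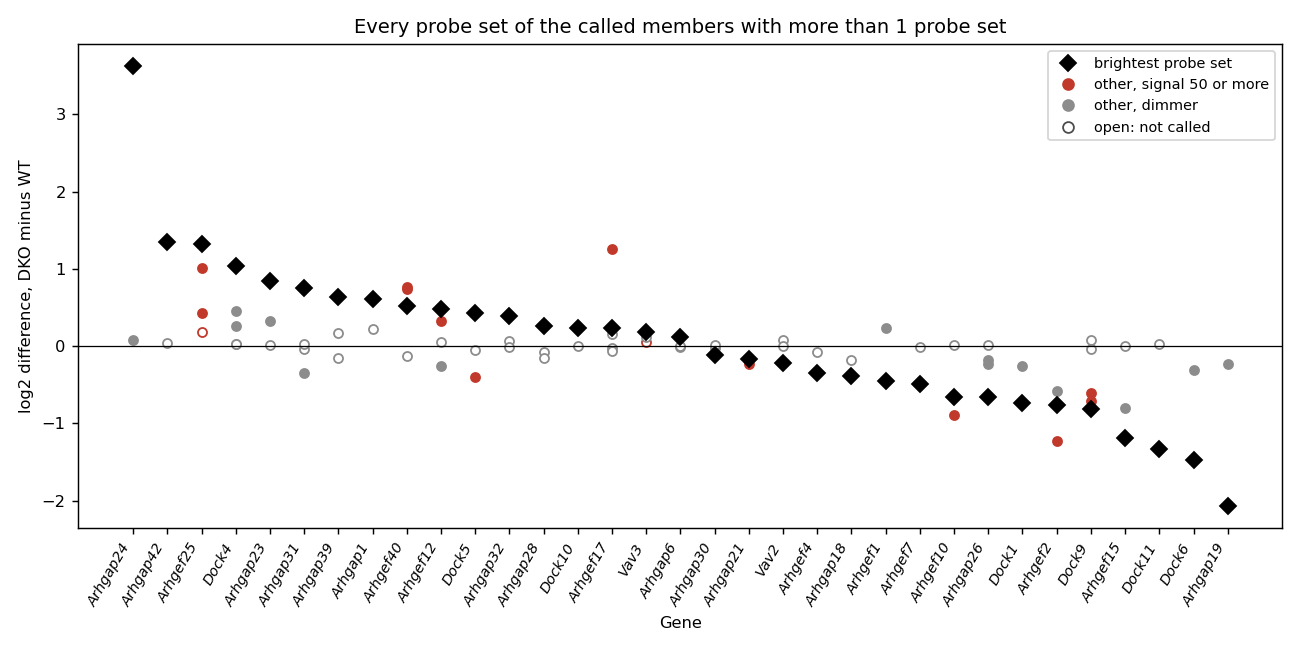
Log2 difference (DKO minus WT) of every probe set of the 33 called members that have more than 1, with the brightest as a black diamond, others in red where the mean signal reached 50 in at least 1 group and grey otherwise, and open where not called. Dimmer probe sets mostly sit near 0; Arhgef17 has a red point at 1.26 far above its diamond, and Dock5 a red point at -0.40 opposite to its diamond.

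The split into rises and falls followed the scaling of the arrays, while the ends of the list kept their side. Over all 20 alternatives run, 23 of the 45 called members kept their direction and their call wherever the gene was tested, 12 of them higher and 11 lower in DKO. Centring chromosomes shifts bright genes alone (mean log2 signal above 7), 8 of the 23, so for the other 15 it was no test. The 12 were Arhgap24 (which was at 0.08 without x, s and a probe sets), Arhgef5, Arhgap42, Dock4, Arhgef3, Arhgap23, Arhgap31, Arhgap1, Arhgap35, Arhgef12, Arhgap32 and Dock10. The 11 were Arhgap19 (which was at -0.23 without x, s and a probe sets), Arhgef16, Arhgef39, Dock6, Dock11, Arhgef15, Dock9, Arhgef2, Dock1, Arhgap26 and Arhgap33. Under poly-A spike scaling the falls of Arhgef1, Arhgef4, Arhgef7, Arhgef10, Arhgef19, Arhgap11a, Arhgap18, Arhgap20os and Arhgap22 were no longer called, and under hybridization spike scaling the rises of Arhgef10l, Arhgap28 and Arhgap6 were no longer called. Arhgap6 also lost its call under quantile normalization.

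**Figure D4:**
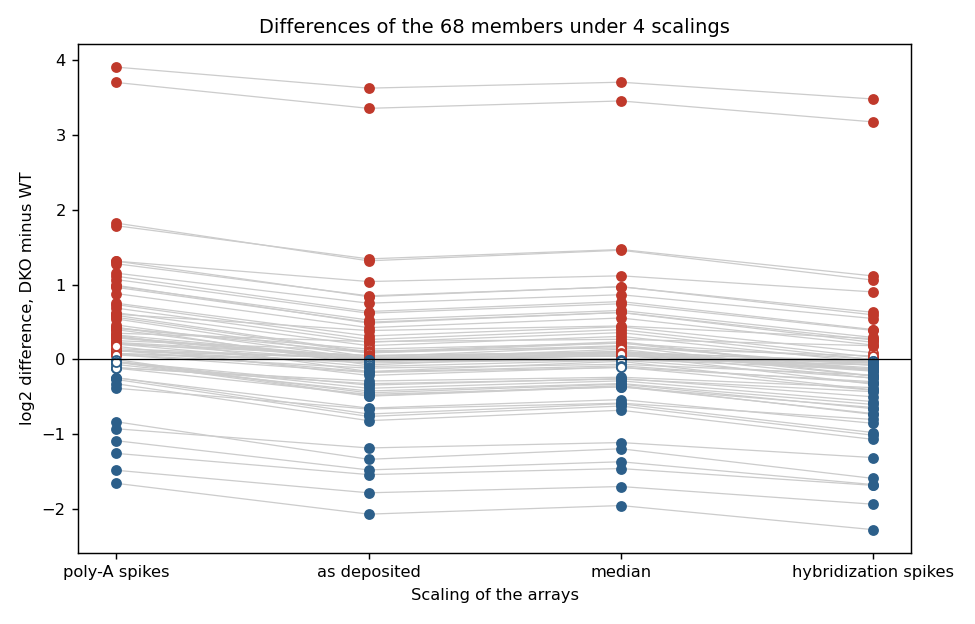
Log2 difference (DKO minus WT) of the 68 members under 4 scalings of the arrays, with grey lines joining a gene, red above 0, blue below 0 and open points where the adjusted p was 0.05 or more. Members near 0 cross from mostly red under poly-A spikes (44 up, 11 down) to mostly blue under hybridization spikes (16 up, 35 down), while the highest and lowest keep their side.

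Other regulators were read from gene lists. Of 36 other RhoGEFs, 12 rose and 13 fell (median -0.051), against 22 and 7 under poly-A and 10 and 20 under hybridization spike scaling. Tiam1, a Rac GEF, had a mean of 10.7 in DKO against 332 in WT (difference -3.70) and Net1, a RhoA GEF, 843 in DKO against 99.6 in WT (2.89). Ect2, the RhoA GEF of cytokinesis, fell by 1.85, and Fgd3, a Cdc42 GEF, rose by 2.09. Of 22 other RhoGAPs, 5 rose and 14 fell (median -0.47), against 8 and 9 under poly-A spike scaling. Racgap1, the partner of Ect2 in cytokinesis, fell to 187 in DKO, against 722 in WT (difference -1.86) and Depdc1b fell by 1.98, while Srgap3, a Rac GAP, reached 501 in DKO against 18.2 in WT (3.92) and Pik3r1, a PI3-kinase subunit with a GAP-like domain, rose by 2.71.

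Among 11 partners of Dock proteins, 4 rose and 5 fell (median -0.086), against 8 and 0 under poly-A spike scaling. Beside the fall of Dock1, the Crk adaptor genes Crk and Crkl were lower (484 in DKO against 632 in WT, difference -0.38, and 473 in DKO against 742 in WT, difference -0.63), whereas Bcar1, which encodes Cas, and Elmo2 were higher (0.50 and 0.74). Under poly-A spike scaling Crk (0.13) and Crkl (-0.13) were not called. None of these lists was given a test of its own. Called were 69.4% of the other RhoGEFs, 86.4% of the other RhoGAPs and 81.8% of the Dock partners, beside 59.7% of all genes. Most genes of these lists had a mean of at least 50 in a group (24 of 36, 16 of 22 and 8 of 11). Of all genes as bright 85.7% were called, and of the dimmer ones 31.7%, so the share of all genes alone is no like comparison.

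**Figure D5:**
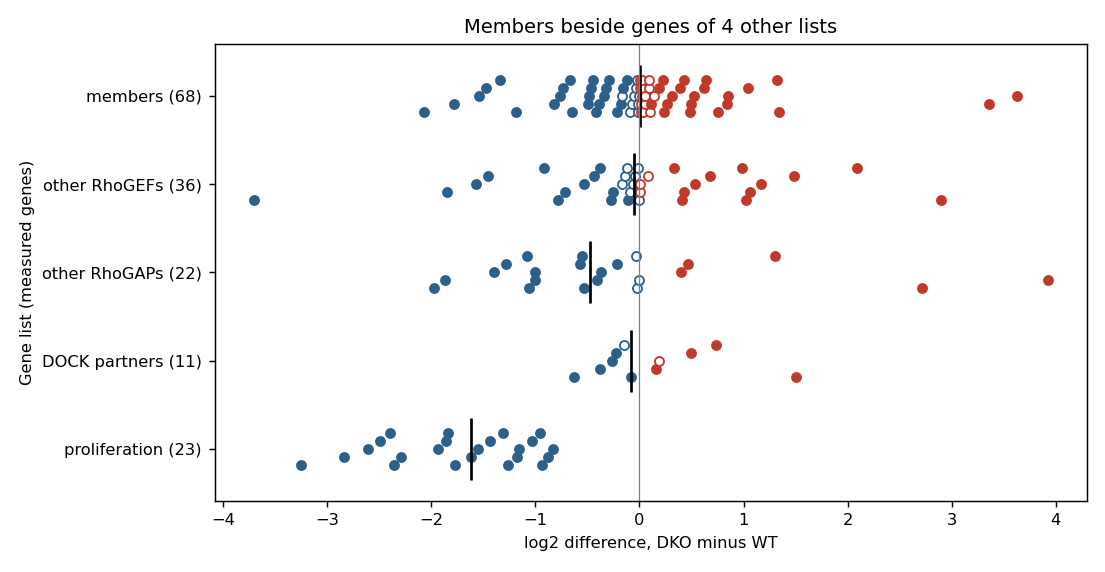
Log2 difference (DKO minus WT) of the 68 members and of each measured gene of 4 other lists, 1 list to a row, with filled points for genes called at 0.05, red above 0 and blue below 0, with a bar at the list median. The members spread on both sides of a median of 0.0068, and the 23 proliferation genes all lie below 0.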

How the data were processed

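Total RNA of 3 DKO and 3 WT samples was hybridized to Affymetrix arrays with 45101 probe sets. The deposited values are 1-colour signal intensities on a linear scale; MAS5 is named per the submitters' processing notes, with no version. What it did to the signals, and any scaling target, is not given in the sources used here. Genes were named by the platform annotation, and 34741 of 34945 probe sets with 1 symbol matched RefSeq by gene number. The 64 control probe sets were left out of the tests. One probe set per gene (highest mean log2(signal + 16) over 6 arrays) gave 18193 genes, which were fitted with limma 3.58.1 in R 4.3.3 (lmFit, eBayes with trend, two-sided, no covariate) on log2(signal + 16), with Benjamini-Hochberg adjustment over all genes and a threshold of 0.05. Abl1, Abl2 and all probe sets of members were fitted over all probe sets. The steps were tested on simulated data. The number of arrays limits the precision.

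Named with full values were members past 0.05 with a log2 difference of at least 1, no overlap and a mean of at least 50 in the higher group, and up to 4 genes of each gene list by the same brightness; other members are given with array values or in shorter form, as chosen after their values were seen. The members and lists were chosen with earlier results of these data known. Deviations of same-numbered arrays correlated at 0.038, 0.11 and 0.16. Those of differently numbered arrays correlated at -0.13 to 0.020, each lower than every same-numbered value. Whether the replicate numbers pair the samples was not tested. The main fit did not pair them, and a replicate block was fitted as an alternative. The alternatives changed the offset, the scaling, the filter on dim genes, the probe set of a gene, the variance model and array weights, added a replicate block, or left out each array; centring each chromosome was added after seeing the data. Some companion lists are not reported here. Promoter windows are RefSeq's for GRCm38.p6.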

Additional observations from a re-analysis of the deposited data

How the results depend on the processing

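Of the 45 called members, 23 kept direction and call under the 20 alternatives wherever tested (chromosome centring left 15 of the 23 unmoved), and 22 did not (9 that rose and 13 that fell). Leaving out each array in turn gave 18 to 21 members higher and 22 to 24 lower in DKO, 4 to 5 and 6 to 6 at 2-fold, a median of -0.014 to 0.015, 3 to 5 members with opposing probe sets, and differences of -0.14 to -0.079 for Abl1 and -0.044 to 0.019 for Abl2. With the replicate number as a replicate block, 46 members were called against 45. With poly-A spike scaling 44 rose, 11 fell, 10 rose 2-fold and the median was 0.24; with hybridization spike scaling the median was -0.14 and 8 members had opposing probe sets against 4. Leaving out dim genes gave 14 falls and a median of 0.087, since fewer genes were tested. At 2-fold, an offset of 64 gave 3 rises and 2 falls, averaged probe sets 2 and 3, and no x, s and a probe sets 2 rises; a larger offset shrinks differences by construction. Abl1 was at 0.36 with poly-A spikes, -0.35 with hybridization spikes, 0.13 with averaged probe sets and -0.24 with chromosomes centred, and Abl2 at 0.48 with poly-A and -0.26 with hybridization spikes. Directions turned with poly-A spikes for Arhgef33 (0.29), Dock2 (0.22), Arhgap8 (0.081), Arhgef26 (0.069), Arhgef11 (0.40), Dock8 (0.12), Arhgap5 (0.43), Arhgap10 (0.21), Arhgap30 (0.065), Arhgap21 (0.32), Arhgap44 (0.062) and Vav2 (0.18). They turned with hybridization spikes for Arhgef17 (-0.0035), Vav3 (-0.040), Arhgef18 (-0.16), Arhgap29 (-0.22) and Arhgap17 (-0.23). They also turned without x, s and a probe sets for Arhgap39 (-0.16) and Arhgef1 (0.23), with averaged probe sets for Dock5 (-0.0096), and with chromosomes centred for Arhgef40 (-0.017), Dock5 (-0.12) and Arhgap12 (-0.23). Beyond these constructions the cause was not tested. The offset shrinks differences most where signals are low, and 31 members had means below 50 in both groups.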
